A study of Mus musculus with 24 samples.

Results

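Immediate early genes are switched on within minutes of a stimulus by proteins that the cell already holds. Here they are 10 genes, chosen by symbol from the deposited gene table: *Fos*, *Fosb*, *Fosl2*, *Junb*, *Egr1*, *Egr2*, *Egr4*, *Npas4*, *Nr4a1* and *Arc*. Earlier results of these data were known when they were chosen, so counts of members beside shares of all genes are descriptions only. All 10 were found among the 51912 genes of the table, and all 10 passed the low-count filter in every fit. RNA was sequenced from the ventral and the dorsal hippocampus of 12 C57BL/6J mice fathered by males that had received nicotine chronically or saline chronically. The 24 libraries made 8 groups of 3: ventral and dorsal hippocampus from nicotine-sired males, saline-sired males, nicotine-sired females and saline-sired females. Each mouse gave 1 ventral and 1 dorsal library. The letters A, B and C stand for the 3 mice of a group. The dose, the age of the offspring and what they had experienced before the tissue was taken are not given in the labels. The labels do not say which mice shared a sire or litter, so p-values measure the spread between these mice. Each combination of sex and sire treatment carries its own title number, and whatever that number marks cannot be told apart from the group.

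In neurons, synaptic activity lets calcium in through NMDA receptors and voltage-gated channels. Calcium-dependent kinases and the ERK cascade then phosphorylate CREB, which sits on cAMP response elements (CRE), and the Elk partners of SRF, which sits on CArG boxes. The induced proteins are mostly transcription factors, which act on a later wave of genes, while Arc works at the synapse itself. In the hippocampus these transcripts are widely used to mark neurons that were active shortly before death, for example during learning.

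The stretches upstream of the start sites were searched for motifs of the factors named above. RefSeq windows (GRCm38.p6) were available for 8 members. *Egr1* and *Arc* had no entry. The search covered the 250 bases before each start on both strands, and *Egr2*, which has several start sites, was counted if any of its windows held a motif. The CRE half-site (TGACG, or CGTCA on the other strand) was in 7 of the 8 genes, *Fosl2* being without it, and in 17.8% of all 32851 windows. The windows of *Fosl2* and *Npas4* lie wholly within annotated exon in GENCODE (250 of 250 bases), so they do not lie upstream of every annotated start. Nor does the *Nr4a1* window, which begins at 101266596, inside a gene annotated from 101254269. The *Egr2* windows that held a motif begin at 67537316 or later, inside a gene annotated from 67535475. The full CRE (TGACGTCA, which contains the half-site) was in 0 of the 8 and in 1.55% of all windows. The CArG box was in *Egr2* alone of the 8 and in 1.47% of all windows. The AP-1 site (TGANTCA), to which Fos-Jun dimers bind, was in 0 of the 8 and in 6.75% of all windows. A TATAAA box was in *Fos* alone and in 12.4% of all windows. The shares of all windows are counted per window, not per gene, and the windows were not matched for base composition. A match is a run of letters and says nothing on whether a factor was bound. Whether any motif has a part in how the members vary between libraries was not tested. Sites farther than 250 bases before a start were not searched, so a motif not found here may lie beyond the window.

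The windows of *Junb* and *Egr4* are shown because these were the members called in dorsal males. Those of *Fos*, *Nr4a1* and *Egr2* show how the number and spacing of half-sites differ among members. Each runs 5′ to 3′ along the gene's strand and ends at the base before the start site. Capitals mark the CRE half-sites and, in *Egr2*, also the CArG box.
Junb chr8:84978749-84978998 minus strand: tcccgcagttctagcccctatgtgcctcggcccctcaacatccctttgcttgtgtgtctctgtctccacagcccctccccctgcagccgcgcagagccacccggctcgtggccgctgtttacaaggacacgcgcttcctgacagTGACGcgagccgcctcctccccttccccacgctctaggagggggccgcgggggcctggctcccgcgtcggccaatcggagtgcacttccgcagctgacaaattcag
Egr4 chr6:85513590-85513839 minus strand: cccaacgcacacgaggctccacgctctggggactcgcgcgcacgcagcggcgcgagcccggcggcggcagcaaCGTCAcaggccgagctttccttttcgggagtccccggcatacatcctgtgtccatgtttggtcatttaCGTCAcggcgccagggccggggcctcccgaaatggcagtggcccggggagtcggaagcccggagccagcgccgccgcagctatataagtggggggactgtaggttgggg
Fos chr12:85473640-85473889 plus strand: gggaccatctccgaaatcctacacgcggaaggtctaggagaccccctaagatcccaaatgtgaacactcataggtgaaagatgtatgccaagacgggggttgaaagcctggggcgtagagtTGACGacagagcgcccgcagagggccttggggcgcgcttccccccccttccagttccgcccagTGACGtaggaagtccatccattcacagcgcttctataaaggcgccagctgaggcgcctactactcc
Nr4a1 chr15:101266596-101266845 plus strand: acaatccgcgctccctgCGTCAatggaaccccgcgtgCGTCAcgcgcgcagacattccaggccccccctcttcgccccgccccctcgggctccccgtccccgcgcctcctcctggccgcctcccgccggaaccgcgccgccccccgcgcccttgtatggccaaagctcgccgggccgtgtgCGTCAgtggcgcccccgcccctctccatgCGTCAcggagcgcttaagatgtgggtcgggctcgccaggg
Egr2 chr10:67537619-67537868 plus strand: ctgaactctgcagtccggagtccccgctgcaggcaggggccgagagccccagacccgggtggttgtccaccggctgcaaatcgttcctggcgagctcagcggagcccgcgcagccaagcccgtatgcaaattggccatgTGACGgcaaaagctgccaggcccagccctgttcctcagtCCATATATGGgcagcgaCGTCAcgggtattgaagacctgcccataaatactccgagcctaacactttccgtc

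*Junb* held 1 half-site, 106 bases before its start. *Egr4* held 2, at 177 and 109 bases, and *Fos* held 2, at 129 and 66 bases. *Nr4a1* held 4, at 233, 213, 69 and 40 bases. In *Egr2* the CArG box, at 72 bases, lay between half-sites at 111 and 55 bases. The distances in *Nr4a1* and *Egr2* are counted from a start site inside the gene, not from its outermost annotated start.

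Per library the counts summed to between 32049770 and 47486547, with a median of 39578834, so a member with the lowest mean level still had 40 counts or more in every library (*Egr2*, 40 to 460). Levels are given as CPM, the count divided by the TMM-scaled library size and set to a library of 1e+06 reads. Ventral hippocampus markers averaged 3.53 to 4.16 log2 CPM in the ventral libraries and 0.96 to 3.18 in the dorsal libraries, with no overlap. Dorsal hippocampus markers did overlap, at 5.10 to 6.60 log2 CPM in the ventral and 5.85 to 7.40 in the dorsal libraries. The 6 excitatory neuron markers summed to 7013 to 9182 CPM in the ventral and 7443 to 10542 CPM in the dorsal libraries, and no marker of any list was at 0. The dorsal library of nicotine-sired female A stood apart: its dentate granule cell markers summed to 249 CPM and its CA1 markers to 223 CPM, the lowest of the 12 dorsal libraries, and its interneuron markers to 857 CPM, the highest. It also held the highest *Egr1* and *Arc* levels of the study. Choroid plexus markers, which come from tissue beside the hippocampus, summed to 43.9 to 1929 CPM in the ventral and 61.3 to 5543 CPM in the dorsal libraries.

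Per kilobase of exon, and averaged over the 24 libraries, the most abundant member was *Arc* (ENSMUSG00000022602, chr15:74669083-74672570, minus strand, GRCm38 here and below), at 59.6 CPM per kb. Arc is the one member that is no transcription factor, and it promotes removal of AMPA receptors from synapses. Next came *Egr1* (ENSMUSG00000038418, chr18:34859823-34864984, plus strand) at 41.6 CPM per kb, a zinc-finger factor with high basal levels in hippocampus. *Junb* (ENSMUSG00000052837, chr8:84974484-84978718, minus strand), a Jun partner of the Fos proteins, followed at 26.0 CPM per kb. The orphan nuclear receptor gene *Nr4a1* (ENSMUSG00000023034, chr15:101254269-101274795, plus strand) had 18.2 and the zinc-finger gene *Egr4* (ENSMUSG00000071341, chr6:85511121-85513589, minus strand) 14.1 CPM per kb.

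The Fos family, whose products pair with Jun proteins to form the AP-1 factor, was lower: *Fos* (ENSMUSG00000021250, chr12:85473890-85477273, plus strand) averaged 6.95, *Fosl2* (ENSMUSG00000029135, chr5:32135801-32157842, plus strand), which encodes Fra-2, 5.64, and *Fosb* (ENSMUSG00000003545, chr7:19302696-19310051, minus strand) 2.23 CPM per kb. *Npas4* (ENSMUSG00000045903, chr19:4984355-4990316, minus strand), a neuronal factor induced by calcium entry that shapes inhibitory synapses, averaged 2.01 CPM per kb. The lowest was *Egr2* (ENSMUSG00000037868, chr10:67535475-67542188, plus strand), at 1.19 CPM per kb. The 2 members with the lowest levels were the most variable: the highest library held 8.60 times the CPM of the lowest for *Egr2* and 7.28 times for *Npas4*, while this ratio was 2.203 for *Fosl2*. *Junb* shares 173 bp of exon with *Prdx2* on the opposite strand, and the strand setting of the counting is not given in the sources used here, so part of its count could come from *Prdx2* (mean count 7249). No other member shares exon sequence with another gene.

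**Figure D1:**
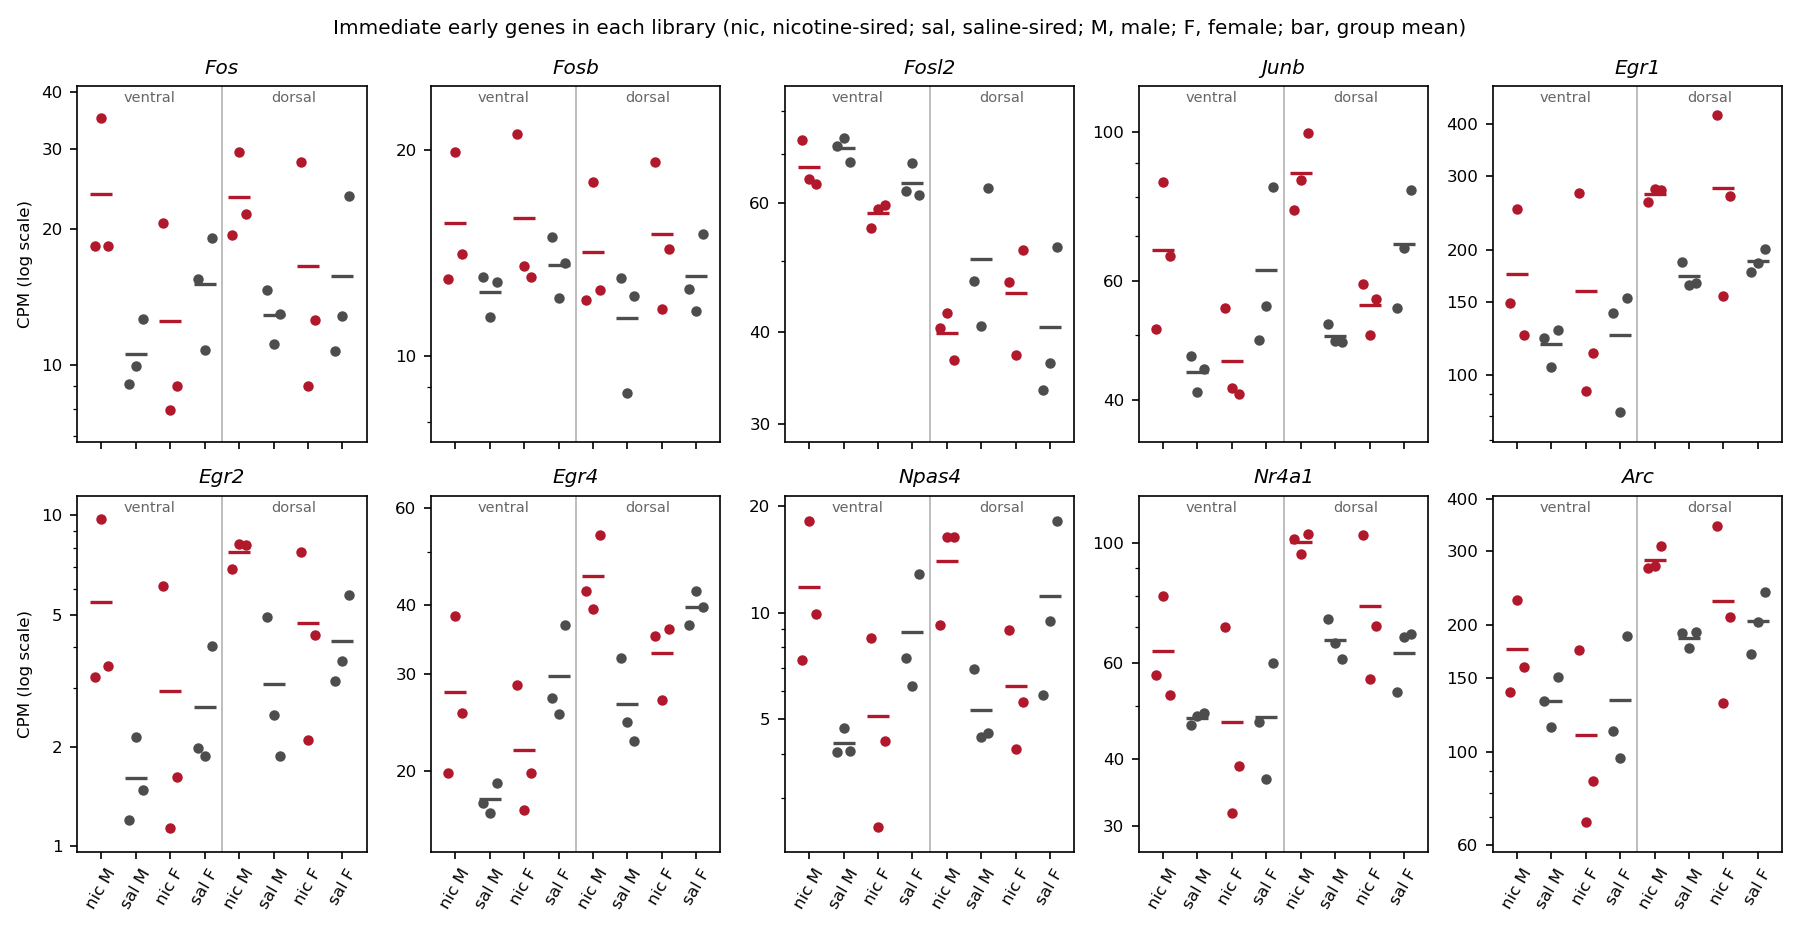
CPM of each member in each of the 24 libraries (log axis), ventral groups left of the grey line and dorsal groups right of it; points are libraries and bars group means. In dorsal males the nicotine-sired points lie above all saline-sired points for 8 of the 10 members.

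In the dorsal hippocampus of males, the nicotine-sired mice had more of most of these transcripts, and 2 members passed the test, *Junb* and *Egr4*. *Junb* was at 76.5, 84.8 and 99.5 CPM in nicotine-sired males, against 51.8, 49.0 and 48.7 CPM in saline-sired males. Every nicotine-sired male was above every saline-sired male, and the saline-sired values lay close together. The group means were 86.9 ± 11.7 and 49.8 ± 1.71 CPM (SD, n = 3 each), and the log2 fold change was 0.80 ± 0.14 (SE; edgeR quasi-likelihood adjusted p = 0.0146). *Egr4* was at 42.4, 39.4 and 53.7 CPM in nicotine-sired males, against 32.1, 24.6 and 22.7 CPM in saline-sired males. These groups did not overlap either, and *Egr4* rose by 0.77 ± 0.16 on the log2 scale (SE; edgeR adjusted p = 0.0358). The background was 1.78% of 19130 genes called in this comparison, 90 higher and 251 lower. A bulk sample cannot tell fewer cells of a type apart from less RNA per cell.

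The other Egr genes were also higher in each nicotine-sired male without passing the test. *Egr1* was at 260.2, 279.6 and 278 CPM in nicotine-sired males, against 187, 165 and 166 CPM in saline-sired males. Its log2 fold change was 0.66 ± 0.27 (SE; edgeR adjusted p = 0.251). *Egr2*, a zinc-finger factor that is induced in neurons by strong stimuli, was at 6.88, 8.19 and 8.15 CPM in nicotine-sired males, against 4.93, 2.48 and 1.88 CPM in saline-sired males. The groups did not overlap, and the log2 fold change was 1.31 ± 0.47 (SE; edgeR adjusted p = 0.191).

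*Npas4* had the steepest fitted difference of the 10. It was at 9.20, 16.3 and 16.3 CPM in nicotine-sired males, against 6.92, 4.47 and 4.58 CPM in saline-sired males. The lowest nicotine-sired male was above the highest saline-sired male, but the spread was wide and the log2 fold change of 1.38 ± 0.44 (SE) did not pass (edgeR adjusted p = 0.156). *Nr4a1* was at 102, 95.7 and 104 CPM in nicotine-sired males, against 72.4, 65.4 and 61.0 CPM in saline-sired males, with a log2 fold change of 0.60 ± 0.19 (SE; edgeR adjusted p = 0.143). *Arc* was at 274, 277 and 309.8 CPM in nicotine-sired males, against 191, 176 and 193 CPM in saline-sired males, with a log2 fold change of 0.62 ± 0.28 (SE; edgeR adjusted p = 0.294). In both genes all nicotine-sired males were above all saline-sired males.

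The Fos family was less uniform. *Fos* was at 19.4, 29.5 and 21.5 CPM in nicotine-sired males, against 14.6, 11.2 and 13.0 CPM in saline-sired males. Its groups did not overlap, and its log2 fold change was 0.86 ± 0.43 (SE; edgeR adjusted p = 0.337). *Fosb*, whose stable splice form accumulates under repeated stimulation, was at 12.1, 18.0 and 12.5 CPM in nicotine-sired males, against 13.0, 8.82 and 12.2 CPM in saline-sired males, with overlapping groups. *Fosl2* was at 40.5, 42.5 and 36.7 CPM in nicotine-sired males, against 47.1, 40.9 and 62.9 CPM in saline-sired males, and it alone of the 10 had a negative fitted value, -0.33 ± 0.19 (SE; edgeR adjusted p = 0.404). Counted together, 8 of the 10 members had all 3 nicotine-sired males above all 3 saline-sired males, which 12.3% of 19849 genes did. The median log2 fold change was 0.71 over the 10 members and -0.00064 over all genes tested. The members vary together between mice, so the 8 are not 8 separate observations. They were also chosen with earlier results of these data known, so the count and the median are descriptions and test nothing.

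The calls of *Junb* and *Egr4* were close to the threshold. The call of *Junb* was lost without nicotine-sired male B or C, and also without B or C of the saline-sired males (adjusted p 0.0528 to 0.0627, log2 fold change 0.70 to 0.82). Leaving out any nicotine-sired male, saline-sired male B or C, or any saline-sired female ended that of *Egr4* (adjusted p 0.0512 to 0.138). Without nicotine-sired female A, whose library stood apart, 3 members were called, *Nr4a1* being added (adjusted p = 0.0111), and without nicotine-sired female B *Egr1* was added (adjusted p = 0.0409). The summed excitatory neuron markers moved with the result, at 8994 to 10317 CPM in nicotine-sired and 7443 to 8492 CPM in saline-sired dorsal males, although 0 of the 6 passed the test. The CA1 markers summed to 394 to 544 CPM in nicotine-sired and 356 to 374 CPM in saline-sired dorsal males. Dentate granule cell markers went the other way, with overlap and 0 of 6 passing (median log2 fold change -0.22). They summed to 317 to 474 CPM in nicotine-sired and 386 to 518 CPM in saline-sired dorsal males. With the excitatory neuron level as a covariate, chosen after seeing the data, 0 members were called, *Junb* having a log2 fold change of 0.86 (adjusted p = 0.213) and *Egr4* one of 0.65 (adjusted p = 0.456), and this fit called 30 genes in all against 341. The part of neuron content in the result was otherwise not tested. The interneuron markers summed to 539.5 to 740.4 CPM in nicotine-sired and 719 to 845 CPM in saline-sired dorsal males, with 0 of 6 passing. Of the 4 microglia markers 1 was higher (179.9 to 202 CPM summed in nicotine-sired and 161 to 177 CPM in saline-sired dorsal males). Ventral hippocampus markers summed to 12.7 to 25.6 CPM in nicotine-sired and 14.6 to 60.9 CPM in saline-sired dorsal males. Of these 0 of 4 passed (median log2 fold change -0.65). Dorsal hippocampus markers summed to 390 to 556 CPM in nicotine-sired and 382 to 404 CPM in saline-sired dorsal males. Here 0 of 3 passed (median 0.33). The part of dissection along this axis in the members' values was not tested.

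In the ventral hippocampus of males most members again had higher values in nicotine-sired mice, but 0 of the 10 passed edgeR's test, 5 had an unadjusted p under 0.05, and 1, *Junb*, passed with DESeq2. The edgeR background was 3.21% of 19224 genes called, and 3042 of the 19224 had an unadjusted p under 0.05. *Fos* was at 18.3, 35.0 and 18.3 CPM in nicotine-sired males, against 9.10, 9.96 and 12.6 CPM in saline-sired males. All nicotine-sired males were above all saline-sired males, and the log2 fold change was 1.18 ± 0.41 (SE; edgeR adjusted p = 0.191). *Npas4* was at 7.34, 18.1 and 9.90 CPM in nicotine-sired males, against 4.03, 4.73 and 4.08 CPM in saline-sired males. Here too the groups did not overlap, with a log2 fold change of 1.46 ± 0.48 (SE; edgeR adjusted p = 0.165). *Egr2* was at 3.24, 9.74 and 3.50 CPM in nicotine-sired males, against 1.20, 2.14 and 1.47 CPM in saline-sired males, again without overlap.

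*Junb* was at 51.0, 84.3 and 65.4 CPM in nicotine-sired males, against 46.5, 41.1 and 44.4 CPM in saline-sired males, and its log2 fold change was 0.61 ± 0.22 (SE; edgeR adjusted p = 0.209). *Egr4* was at 19.9, 38.2 and 25.6 CPM in nicotine-sired males, against 17.5, 16.8 and 19.1 CPM in saline-sired males, with a log2 fold change of 0.65 ± 0.26 (SE; edgeR adjusted p = 0.242). In both, the nicotine-sired values spread much more widely than the saline-sired values, with mouse B on top. *Nr4a1* was at 57.2, 80.0 and 52.5 CPM in nicotine-sired males, against 46.2, 48.0 and 48.6 CPM in saline-sired males, without overlap. *Egr1*, *Arc*, *Fosb* and *Fosl2* had overlapping groups, and their log2 fold changes were between -0.083 and 0.56. In all, 6 of the 10 members had every nicotine-sired male above every saline-sired male, which 11.6% of 19849 genes did, and the median log2 fold change was 0.58 over the members and 0.0090 over all genes tested. Nicotine-sired male B was the highest of its group for 9 of the 10 members. The excitatory neuron markers summed to 7621 to 9182 CPM in nicotine-sired and 7440 to 8241 CPM in saline-sired ventral males. These overlapped, unlike in the dorsal hippocampus. Dentate granule cell markers were lower without overlap, at 180 to 244 CPM summed in nicotine-sired and 248 to 258 CPM in saline-sired ventral males. Of these markers 0 of 6 passed (median log2 fold change -0.51), and their part in the members' values was not tested. Markers of other cells moved in ventral males: 2 of 4 microglia, 2 of 5 endothelial, 2 of 5 blood and 1 of 5 astrocyte markers were higher in nicotine-sired mice. The blood markers summed to 391 to 464 CPM in nicotine-sired and 282 to 347 CPM in saline-sired ventral males, and their part in the members' values was not tested.

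In females sire treatment made no difference that passed the test. None of the 10 members passed with edgeR in the dorsal hippocampus, where 0 of 10 had an unadjusted p under 0.05 and 0 passed with DESeq2, or in the ventral hippocampus, with the same counts. The edgeR background was low, with 0.0312% of ventral and 0.0314% of dorsal genes called. An unadjusted p under 0.05 was found for 2668 of 19224 ventral and 2547 of 19130 dorsal genes. Of the 5 blood markers 0 passed in either region, while their summed level did not overlap between the groups, at 419.6 to 486 CPM in nicotine-sired and 282 to 377 CPM in saline-sired ventral samples, and at 375 to 632 CPM in nicotine-sired and 219.6 to 322 CPM in saline-sired dorsal samples. Endothelial markers did not overlap either, with 0 of 5 passing. They summed to 149 to 159 CPM in nicotine-sired and 129 to 137 CPM in saline-sired ventral samples. In dorsal samples they summed to 137 to 191 CPM in nicotine-sired and 116 to 136 CPM in saline-sired females. Of 7 choroid plexus markers 0 passed in ventral females (median log2 fold change 3.54). The part of these cells in the members' values was not tested. *Junb* was at 59.4, 49.9 and 56.4 CPM in nicotine-sired females, against 54.8, 67.3 and 82.1 CPM in saline-sired females in the dorsal hippocampus. The groups overlapped, and the log2 fold change was -0.29 ± 0.14 (SE; edgeR adjusted p = 0.378). *Egr4* was at 35.2, 26.9 and 36.2 CPM in nicotine-sired females, against 36.8, 42.5 and 39.8 CPM in saline-sired females there. All nicotine-sired females were below all saline-sired females, yet the difference of -0.27 ± 0.16 (log2, SE) did not pass (edgeR adjusted p = 0.476). *Npas4* was at 8.92, 4.12 and 5.58 CPM in nicotine-sired females, against 5.86, 9.46 and 18.1 CPM in saline-sired females, with a log2 fold change of -0.83 ± 0.44 (SE; edgeR adjusted p = 0.434).

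Single mice set the spread among females. *Egr1* was at 419, 155 and 268 CPM in nicotine-sired females, against 177, 186 and 201 CPM in saline-sired females in the dorsal hippocampus. The nicotine-sired values ranged from below the lowest to above the highest saline-sired value, with mouse A highest and mouse B lowest. *Arc*, at 346, 131 and 209 CPM in nicotine-sired females, against 171, 204 and 240.02 CPM in saline-sired females, had the same order of mice. *Nr4a1* was at 103, 56.2 and 70.4 CPM in nicotine-sired females, against 53.2, 67.2 and 68.0 CPM in saline-sired females, and *Fos* at 28.0, 9.00 and 12.6 CPM in nicotine-sired females, against 10.8, 12.8 and 23.6 CPM in saline-sired females, both with overlap. The *Egr1* fold change was 0.59 ± 0.27 (log2, SE; edgeR adjusted p = 0.387), and it was between 0.17 and 0.87 when mice were left out in turn.

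In the ventral hippocampus of females the members were again widely spread. *Junb* was at 54.8, 41.6 and 40.8 CPM in nicotine-sired females, against 49.0, 55.1 and 82.9 CPM in saline-sired females, with a log2 fold change of -0.44 ± 0.22 (SE; edgeR adjusted p = 0.402). *Egr4* was at 28.7, 17.0 and 19.9 CPM in nicotine-sired females, against 27.2, 25.4 and 36.9 CPM in saline-sired females, with a log2 fold change of -0.44 ± 0.25 (SE; edgeR adjusted p = 0.467). *Npas4* was at 8.49, 2.49 and 4.35 CPM in nicotine-sired females, against 7.43, 6.19 and 12.8 CPM in saline-sired females. All of these overlapped, and nicotine-sired female A was the highest of her group in each. *Fosl2* was at 55.5, 59.0 and 59.7 CPM in nicotine-sired females, against 62.3, 67.9 and 61.5 CPM in saline-sired females, without overlap, and differed by -0.14 ± 0.071 (log2, SE; edgeR adjusted p = 0.402). In females 0 of the 10 members had all nicotine-sired above all saline-sired mice in either region, which 9.77% of genes did in the ventral and 8.45% in the dorsal hippocampus. All nicotine-sired females were below all saline-sired females for 1 of 10 members in each region, *Fosl2* in the ventral and *Egr4* in the dorsal. This is near the share of all genes, 9.94% in the ventral and 9.76% in the dorsal hippocampus. The remaining members were within overlapping ranges, as the plot of every library shows. The median log2 fold change over the 10 members was -0.20 in the ventral hippocampus of females, against 0.00031 over all genes tested, and 0.16 in the dorsal hippocampus, against 0.0086 over all genes tested.

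**Figure D2:**
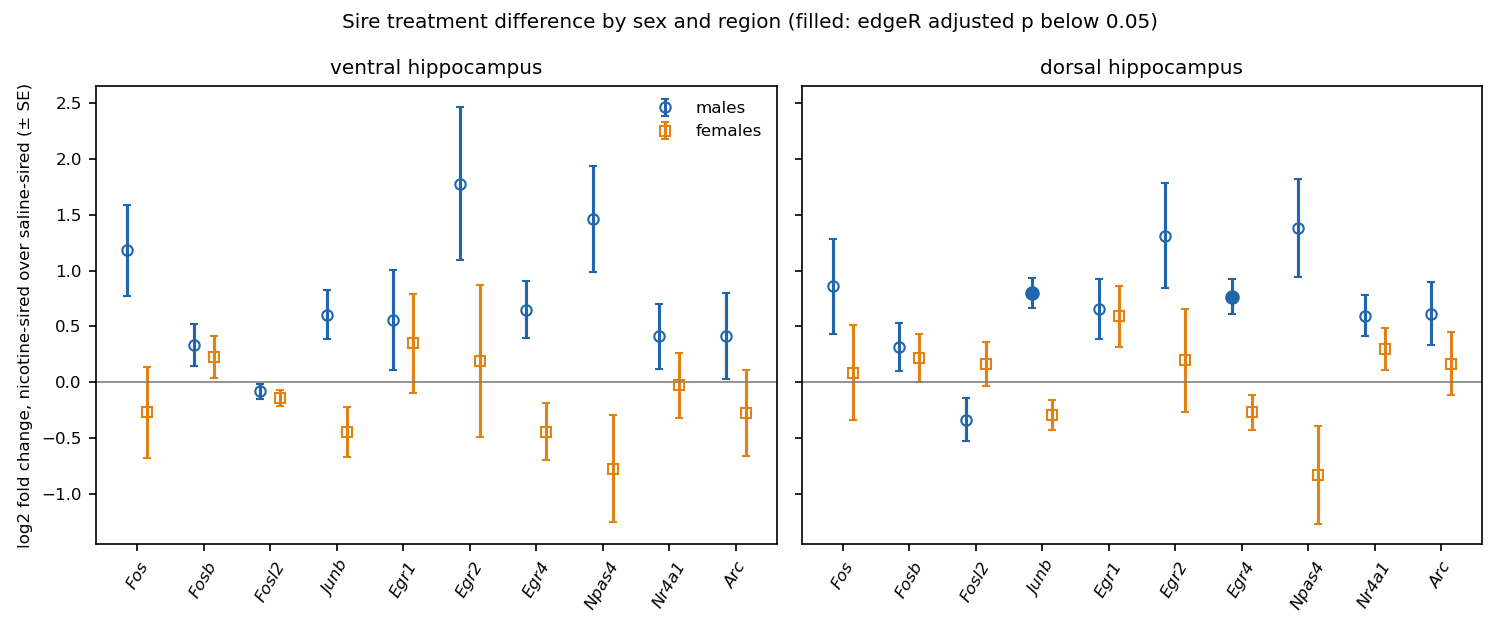
Log2 fold change, nicotine-sired over saline-sired, of each member in males (circles) and females (squares), ventral hippocampus left and dorsal right; bars are SE and filled symbols passed edgeR's adjusted p threshold of 0.05. *Junb* and *Egr4* in dorsal males are the 2 filled points, and *Junb*, *Egr4* and *Npas4* lie above 0 in males and below 0 in females in both regions.

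Whether the treatment difference itself differed between males and females was tested as an interaction. In the dorsal hippocampus 2 members passed, and the background was 2.24% of genes called. For *Junb* the difference in males (0.80 ± 0.14) exceeded that in females (-0.29 ± 0.14) by 1.09 ± 0.19 on the log2 scale (SE; edgeR adjusted p = 0.0188). For *Egr4* it was 0.77 ± 0.16 in males and -0.27 ± 0.16 in females, a gap of 1.03 ± 0.22 (log2, SE; edgeR adjusted p = 0.0397). *Npas4* had the widest gap, 2.22 ± 0.62 (log2, SE), without passing (edgeR adjusted p = 0.0910), and DESeq2 called it (adjusted p = 0.0185). *Egr1* had 0.66 ± 0.27 in males and 0.59 ± 0.27 in females, a gap of 0.067 ± 0.38 (log2, SE; edgeR adjusted p = 0.943). All 4 groups enter these gaps. In the dorsal hippocampus the mean of *Junb* was 49.8 ± 1.71 CPM among saline-sired males and 68.1 ± 13.7 CPM among saline-sired females (SD, n = 3 each), and *Egr4* 26.5 ± 5.01 and 39.7 ± 2.86 CPM. The order of the sexes was the reverse in nicotine-sired mice. There *Junb* was at 86.9 ± 11.7 CPM in males and 55.2 ± 4.82 CPM in females, and *Egr4* at 45.2 ± 7.51 and 32.8 ± 5.09 CPM.

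These calls too were close to the threshold. The *Junb* call was lost without nicotine-sired male C, nicotine-sired female C or saline-sired female B (adjusted p up to 0.0592). The *Egr4* call was lost in 9 of 12 such fits and kept only without nicotine-sired male B, nicotine-sired female A or saline-sired male A (adjusted p 0.0252 to 0.116 over the 12). Leaving out nicotine-sired female A left 2 members called. With the excitatory neuron level as a covariate, chosen after seeing the data, 0 members were called, while the gap was 1.15 for *Junb* (adjusted p = 0.152) and 0.91 for *Egr4* (adjusted p = 0.307) on the log2 scale, close to the values without it. Markers of several cell types had a dorsal gap too. Of 6 interneuron markers 2 were called negative (median -0.66), as was 1 of 5 endothelial markers (median -0.29), while 1 of 6 excitatory neuron markers (median 0.22) and 1 of 4 microglia markers (median 0.090) were called positive. The interneuron markers summed to 539.5 to 740.4 CPM in nicotine-sired and 719 to 845 CPM in saline-sired males, and to 703 to 857 CPM in nicotine-sired and 583 to 712 CPM in saline-sired females. None of the 7 choroid plexus markers was called, with a median gap of -2.62. The part of interneurons and endothelial cells in the gaps was not tested. In the ventral hippocampus 0 of 10 passed edgeR's test, against an edgeR background of 1.07%, and 4 had an unadjusted p under 0.05. *Junb* and *Npas4* passed with DESeq2. Of all 19224 genes tested there, 2721 had an unadjusted p under 0.05. The ventral gap between males and females was 1.05 ± 0.31 for *Junb* (edgeR adjusted p = 0.160), 1.09 ± 0.36 for *Egr4* (edgeR adjusted p = 0.198), 2.24 ± 0.67 for *Npas4* (edgeR adjusted p = 0.169) and 1.45 ± 0.58 for *Fos* (edgeR adjusted p = 0.294), all log2 with SE. For *Junb*, *Egr4* and *Npas4* the ventral gaps were close in size to the dorsal ones and had wider errors.

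Over both sexes together no member passed. In the dorsal hippocampus edgeR called 0 of 10, against an edgeR background of 0.0784% of genes, and 5 had an unadjusted p under 0.05. *Nr4a1* alone passed with DESeq2 (adjusted p = 0.0381), whose own share of all genes called is not given here. Of all 19130 genes tested there, 2062 had an unadjusted p under 0.05. The fitted values were 0.45 ± 0.13 for *Nr4a1* (edgeR adjusted p = 0.273) and 0.62 ± 0.19 for *Egr1* (edgeR adjusted p = 0.301), log2 with SE. Without nicotine-sired female B *Egr1* was called (adjusted p = 0.0202). In the ventral hippocampus edgeR and DESeq2 called 0 of 10, and 1 had an unadjusted p under 0.05. The edgeR background was 1.75%, with 3015 of 19224 genes at an unadjusted p under 0.05. The treatment difference did not differ detectably between ventral and dorsal hippocampus for any member: edgeR called 0 of 10, with 0 at an unadjusted p under 0.05 and a background of 0% of 19849 genes. An unadjusted p under 0.05 was found for 945 of the 19849. The gap was -0.32 ± 0.35 for *Arc* and -0.17 ± 0.19 for *Junb* (log2, SE), with errors about as large as the gaps.

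The clearest differences were between the ventral and the dorsal hippocampus. Over all groups 4 members were lower in the ventral hippocampus, *Arc*, *Egr1*, *Egr4* and *Nr4a1*, and 1 was higher, *Fosl2*, against a background of 29.2% of genes called, 2844 higher and 2959 lower. *Arc* ranged over 68.1 to 229.7 CPM in the ventral libraries (median 135) and 131 to 346 CPM in the dorsal libraries (median 206). It was lower in the ventral library in 12 of 12 mice, with a log2 fold change of -0.72 ± 0.17 (SE; edgeR adjusted p = 0.00461). *Egr1* ranged over 81.6 to 273 CPM in the ventral libraries (median 127) and 155 to 419 CPM in the dorsal libraries (median 194). It too was lower in 12 of 12 mice, with a log2 fold change of -0.65 ± 0.19 (SE; edgeR adjusted p = 0.0158). The ranges of both genes overlapped between regions, but no mouse had the higher level in its ventral library.

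*Egr4* ranged over 16.8 to 38.2 CPM in the ventral libraries (median 22.6) and 22.7 to 53.7 CPM in the dorsal libraries (median 36.5), with a log2 fold change of -0.56 ± 0.11 (SE; edgeR adjusted p = 0.00076), and *Nr4a1* over 31.7 to 80.0 CPM in the ventral libraries (median 48.3) and 53.2 to 104 CPM in the dorsal libraries (median 69.2), with one of -0.56 ± 0.13 (SE; edgeR adjusted p = 0.00276). Each was lower in the ventral library in 12 of 12 mice. *Fosl2* went the other way. It ranged over 55.5 to 73.6 CPM in the ventral libraries (median 64.2) and 33.4 to 62.9 CPM in the dorsal libraries (median 41.7), was higher in the ventral library in 12 of 12 mice and had a log2 fold change of 0.57 ± 0.075 (SE; edgeR adjusted p = 1.0e-05). These 5 calls were kept in each of 12 fits that left out the pair of libraries of 1 mouse.

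*Junb* and *Egr2* passed when each mouse was compared with itself. With the mouse as a block *Junb* had a log2 fold change of -0.25 (adjusted p = 0.0020) and *Egr2* one of -0.77 (adjusted p = 0.0087), which made 7 members called; without the block they had -0.24 ± 0.10 (SE; edgeR adjusted p = 0.0679) and -0.69 ± 0.30 (SE; edgeR adjusted p = 0.0950). Without the block *Junb* passed with DESeq2 (adjusted p = 0.0324), and without nicotine-sired male B (adjusted p = 0.0320) or saline-sired female C (adjusted p = 0.0167). *Egr2* passed without nicotine-sired male B (adjusted p = 0.0493) or nicotine-sired female A (adjusted p = 0.0192). Both were lower in the ventral library in 11 of 12 mice. *Fos* was lower in 10 of 12 and *Npas4* in 9 of 12 mice, and *Fosb* was higher in 10 of 12, with log2 fold changes of -0.18 ± 0.22, -0.29 ± 0.24 and 0.10 ± 0.11 (SE), none of which passed. The excitatory neuron markers moved with the region, 4 of 6 being lower in the ventral hippocampus, as did 5 of 6 dentate granule cell markers (180.03 to 298 CPM summed in the ventral and 249 to 518 CPM in the dorsal libraries). All 4 oligodendrocyte markers were lower too (2654 to 3874 CPM summed in the ventral and 3901 to 7063 CPM in the dorsal libraries), as were 6 of 7 choroid plexus markers (43.9 to 1929 CPM in the ventral and 61.3 to 5543 CPM in the dorsal libraries). Of 6 interneuron markers 3 were higher (751 to 929 CPM in the ventral and 539.5 to 857 CPM in the dorsal libraries). With the excitatory neuron level as a covariate, chosen after seeing the data, 1 member was called, *Fosl2*, and the log2 values were -0.61 for *Egr1*, -0.53 for *Arc*, -0.49 for *Nr4a1* and -0.48 for *Egr4* (adjusted p 0.126 to 0.293). That covariate itself differs between the regions.

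**Figure D3:**
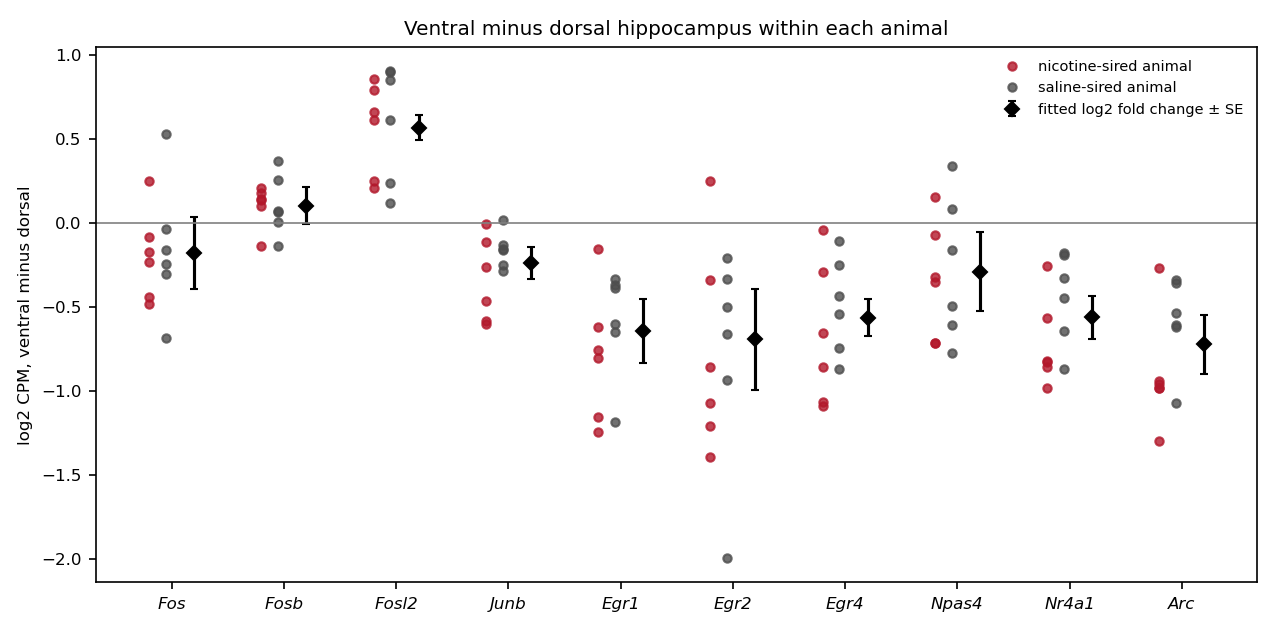
Ventral minus dorsal log2 CPM of each member within each of the 12 mice (red, nicotine-sired; grey, saline-sired), with the fitted log2 fold change ± SE (black diamond). All 12 points lie below 0 for *Arc*, *Egr1*, *Egr4* and *Nr4a1* and above 0 for *Fosl2*.

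Ranked by group mean, nicotine-sired males were the highest of the 4 groups of a region for 7 of the 10 members, in the ventral as in the dorsal hippocampus. That group was the highest for 25.5% of 19849 genes in the ventral and 22.3% in the dorsal hippocampus. The ranges of neighbours in the order did not overlap in 1 of 30 ventral and 2 of 30 dorsal pairs, against 8.06% of the ventral and 7.15% of the dorsal pairs of all genes. These were *Fosl2* in the ventral hippocampus, with saline-sired females above nicotine-sired females, and in the dorsal hippocampus *Egr1*, with nicotine-sired males above saline-sired females, and *Egr4*. For dorsal *Egr4* the order was nicotine-sired males at 45.2 ± 7.51, saline-sired females at 39.7 ± 2.86, nicotine-sired females at 32.8 ± 5.09 and saline-sired males at 26.5 ± 5.01 CPM (SD, n = 3 each). The step that did not overlap was the one between the females.

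Within groups, the members varied together from library to library. After each library's deviation from its group mean was taken, the 36 pairs of members other than *Fosl2* had a median Pearson r of 0.80 over the 24 libraries, between 0.52 and 0.95. The closest pairs were *Egr1* with *Nr4a1* (0.95), *Arc* with *Nr4a1* (0.94) and *Egr1* with *Arc* (0.92). The 9 pairs with *Fosl2* had a median of 0.10, between -0.16 and 0.31. These values describe genes measured in the same libraries, which share depth and dissection. Some libraries were at the edge of their group for most members. Nicotine-sired female A was the highest of her group for 9 members in the ventral and 8 in the dorsal hippocampus, and nicotine-sired female B the lowest for 7 and 10. Saline-sired female C was the highest for 8 and 9 members. Nicotine-sired male B was the highest for 9 in the ventral hippocampus and saline-sired male A for 8 in the dorsal. Saline-sired female B was the lowest for 8 in the ventral hippocampus, and in the dorsal saline-sired female A was the lowest for 9 and nicotine-sired male A for 7.

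**Figure D4:**
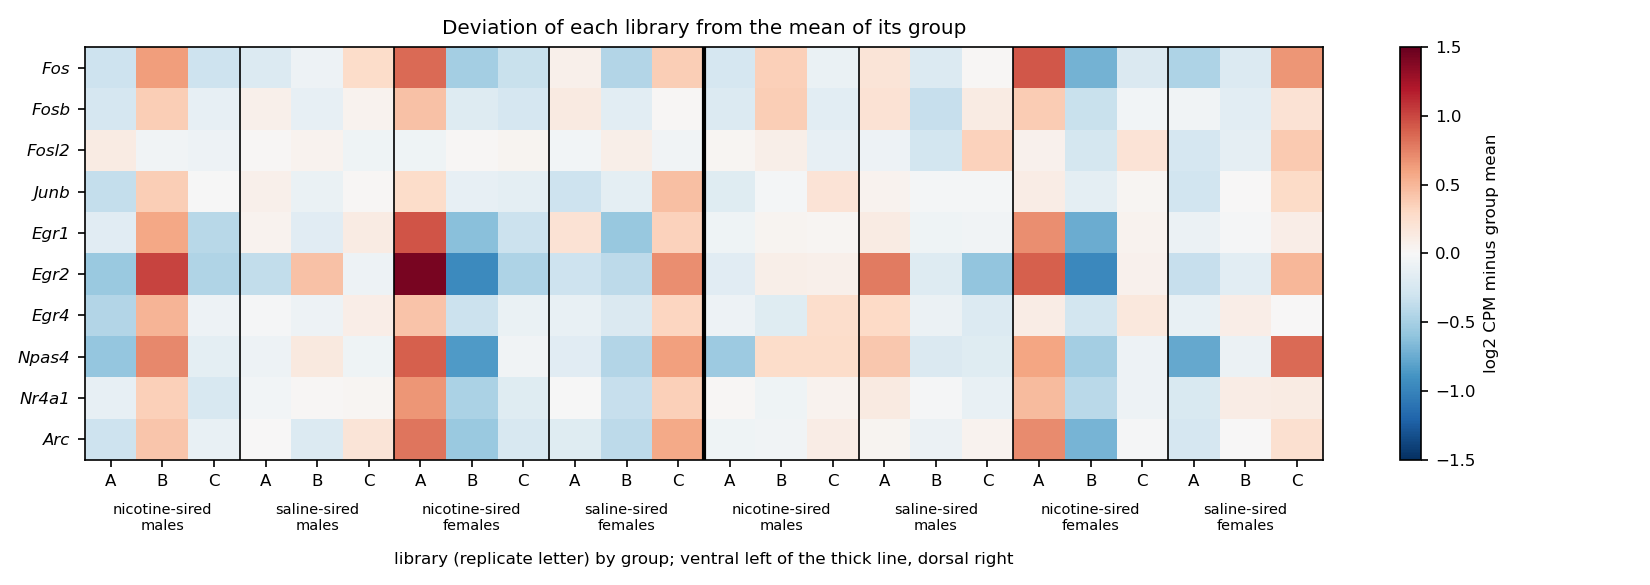
Deviation of each library from the mean of its group (log2 CPM, colour scale from -1.5 to 1.5) for the 10 members; ventral libraries are left of the thick line and dorsal ones right. Whole columns share a colour, for example the red columns of nicotine-sired female A in both regions, while the row of *Fosl2* does not follow them.

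The deviations of the ventral and dorsal libraries of a mouse were compared member by member. Over the 12 mice Pearson's r between both regions was 0.83 for *Fosb* (exact two-sided permutation within groups, p = 0.0162; Spearman's rho 0.70, p = 0.0340), 0.81 for *Fos* (p = 0.0247; rho 0.75, p = 0.0671), and 0.74 for *Npas4* (p = 0.0332; rho 0.70, p = 0.0432). None of the 10 relations computed passed after Benjamini-Hochberg adjustment (lowest adjusted permutation p = 0.111 for r and 0.168 for rho). Without the 2 mice farthest from the median, r was 0.66 for *Fosb*, 0.63 for *Fos* and 0.77 for *Npas4*, and none of the 10 exact p-values adjusted for testing passed (lowest 0.729). For *Egr4* r was 0.028 (rho 0.12), and for *Fosl2* -0.32 (rho -0.39), neither with a permutation p under 0.05. For *Egr1* r was 0.71 (rho 0.48) and was 0.18 without the 2 farthest mice, for *Nr4a1* it was 0.62 (rho 0.29) and -0.11 without them, and for *Egr2* it was 0.59 (rho 0.48) and 0.15 without them.

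Other genes were ranked by how closely their levels followed the mean of the members over the 24 libraries, each region's mean removed. The ranking took genes past the low-count filter of the fit of 24 libraries. It left out Gm-numbered, Rik and clone names, pseudogenes and similar symbols. The closest were *Ier2* (Pearson r = 0.85), *Dusp1* (0.85), *Midn* (0.83), *Eif1ad* (0.82), *Phf13* (0.81), *Nab2* (0.79), *Sertad1* (0.79) and *Nr1d1* (0.78). *Ier2* is itself an immediate early gene, *Dusp1* encodes a phosphatase that switches MAP kinases off, and *Nab2* encodes a co-repressor of Egr proteins. Of the members, *Fos* and *Egr2* followed the mean most closely (0.96 each, the mean including them) and *Fosl2* not at all (-0.032). These are descriptions over libraries that the genes share.

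The rest of the immediate early response was described with a list of 36 other genes. In dorsal males 1 of 36 was higher, *Klf10*, a zinc-finger factor, and 1 lower, *Maff*, a small Maf factor. *Klf10* averaged 37.0 ± 3.71 CPM in nicotine-sired and 26.1 ± 0.486 CPM in saline-sired dorsal males (SD, n = 3 each), and rose by 0.50 ± 0.11 (log2, SE; edgeR adjusted p = 0.0472). *Maff* averaged 0.963 ± 0.200 CPM in nicotine-sired and 2.47 ± 0.0947 CPM in saline-sired dorsal males, a change of -1.36 ± 0.27 (log2, SE; edgeR adjusted p = 0.0287). In ventral males, of 35 tested, *Klf10* (0.50 ± 0.09 (log2, SE; edgeR adjusted p = 0.00666)) and *Gadd45b*, a stress and activity-induced gene linked to DNA demethylation (0.46 ± 0.094 (log2, SE; edgeR adjusted p = 0.0134)), were higher. *Maff* (-1.32 ± 0.26 (log2, SE; edgeR adjusted p = 0.0114)) and *Nfil3*, a repressor of the clock pathway (-0.50 ± 0.088 (log2, SE; edgeR adjusted p = 0.00581)), were lower there. Over both regions nicotine-sired males, nicotine-sired females and saline-sired females averaged between 0.672 and 0.963 CPM of *Maff*, against 2.38 ± 0.622 CPM in the ventral and 2.47 ± 0.0947 CPM in the dorsal hippocampus of saline-sired males. The median log2 fold change of the list was 0.017 in ventral and -0.0080 in dorsal males, close to that of all genes tested.

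In females 0 of 35 passed in the ventral and 0 of the 36 in the dorsal hippocampus by edgeR, with 8 at an unadjusted p under 0.05 in each. Of all genes tested in females, 2668 of 19224 ventral and 2547 of 19130 dorsal genes had an unadjusted p under 0.05. *Egr3*, the Egr gene outside the 10, had the smallest p in dorsal females without passing, at 0.71 ± 0.16 (log2, SE; edgeR adjusted p = 0.180). The gap between males and females was positive for *Gadd45b* in the ventral (0.82 ± 0.13 (log2, SE; edgeR adjusted p = 0.00945)) and the dorsal hippocampus (0.65 ± 0.15 (log2, SE; edgeR adjusted p = 0.0442)). It was negative for *Nfil3* in the ventral hippocampus (-0.61 ± 0.13 (log2, SE; edgeR adjusted p = 0.0355)). Over both sexes in the ventral hippocampus *Klf10* was higher (0.30 ± 0.064 (log2, SE; edgeR adjusted p = 0.0289)) and *Maff* lower (-0.85 ± 0.20 (log2, SE; edgeR adjusted p = 0.0403)). Between regions 3 of the 36 were higher and 12 lower in the ventral hippocampus, where 29.2% of all genes were called, the lower ones including *Plk2*, *Klf10*, *Ptgs2* and *Tiparp* and the higher ones *Nr4a2* (0.55 ± 0.12 (log2, SE; edgeR adjusted p = 0.00278)), *Jun* and *Klf6*.

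Genes on either side of the members in the pathway were described with 3 further lists. Of 12 MAP kinase phosphatases and feedback inhibitors, which end the ERK signal, 0 passed in any treatment comparison by edgeR, with 0 to 5 at an unadjusted p under 0.05 and a background of 0% to 3.21% of genes called, so that a count of 0 sets them apart from no other genes. Over the treatment comparisons, 945 to 3859 of all genes tested had an unadjusted p under 0.05. *Dusp14*, a phosphatase, averaged 48.0 ± 23.4 CPM in nicotine-sired and 26.6 ± 5.25 CPM in saline-sired dorsal females (SD, n = 3 each; edgeR adjusted p = 0.285). Between regions, with 29.2% of all genes called, 6 of the 12 were lower in the ventral hippocampus and 0 higher, among them *Dusp4* (-0.84 ± 0.08 (log2, SE; edgeR adjusted p = 2.84e-07)), *Spred2*, *Dusp5* and *Dusp6*; their median was -0.19, against -0.0060 over all genes tested. Of 21 upstream kinases, factors and coactivators 0 passed in any treatment comparison by edgeR, with 0 to 7 at an unadjusted p under 0.05. In the ventral hippocampus 2 of these were higher than in the dorsal (background 29.2%), *Mapk3* (0.31 ± 0.045 (log2, SE; edgeR adjusted p = 1.74e-05)) and *Rps6ka5*, and 10 lower, among them *Elk4*, *Mkl2*, *Camk2a* and *Elk1*.

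Of 15 later activity-regulated effectors, 2 had a dorsal gap between males and females, both negative. *Inhba*, which encodes the activin A subunit, averaged 7.16 ± 0.482 CPM in nicotine-sired and 9.99 ± 3.11 CPM in saline-sired dorsal males. In dorsal females it averaged 15.4 ± 2.44 CPM in nicotine-sired and 8.20 ± 0.699 CPM in saline-sired mice (SD, n = 3 each), so that the gap was -1.41 ± 0.27 (log2, SE; edgeR adjusted p = 0.0233). *Scg2*, a secretory granule protein, had a gap of -0.63 ± 0.14 (log2, SE; edgeR adjusted p = 0.0436). These run against the direction of *Junb* and *Egr4*. Within either sex, and over both, 0 of the 15 passed for sire treatment by edgeR, with 1 to 5 at an unadjusted p under 0.05. Between regions (background 29.2%) 7 of the 15 were lower in the ventral hippocampus, led by *Bdnf*, the neurotrophin gene (-0.67 ± 0.07 (log2, SE; edgeR adjusted p = 7.47e-07)), *Nrn1*, *Rasgrp1* and *Inhba*, and 3 were higher, *Ptprn*, *Mmp9* and *Pcsk1*.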

How the data were processed

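Per the labels' protocols, RNA from frozen ventral and dorsal hippocampus was made into stranded mRNA libraries and read as 150 bp single ends. The authors deposited raw read counts for 51912 genes, 1 column per library. Per the submitters' processing notes, TopHat2, Cufflinks, Cuffdiff and the build mm10 (GRCm38) were used, with no role given. What counted the reads, and with which strand setting, is not given in the sources used here. If strand was ignored, reads of an opposite gene would be added to a member that overlaps it, as with Junb.

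The 10 members and the gene lists were chosen with earlier results of these data known. Symbols of the members and lists came from the deposited gene table. Of the gene IDs, 51719 were found in GENCODE M21, which gave exon lengths and coordinates. The deposited counts entered edgeR 4.0.16 under R 4.3.3 with limma 3.58.1. Genes were filtered with filterByExpr, libraries scaled by TMM, and each contrast tested two-sided by the robust quasi-likelihood F statistic. Its p-values were adjusted by Benjamini-Hochberg across all tested genes, with a threshold of 0.05. Treatment comparisons used 1 fit per region (19130 dorsal and 19224 ventral genes) and region comparisons 1 fit of 24 libraries (19849 genes). Biological variation between libraries (common coefficient) came to 0.118 ventral, 0.160 dorsal and 0.140 jointly. Log2 CPM values used a prior count of 2. Genes of the lists were named if past the threshold, at most 4 per list and direction, or else as the smallest p. The procedure was tested on simulated counts before use.

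A ventral and a dorsal library with the same title prefix come from 1 mouse, so they pair. The r between their deviations had a median of 0.15 and lay between -0.076 and 0.53, and in 9 of 12 mice the dorsal library matched its own ventral library best. Alternatives tried were RLE size factors, no low-count filter, DESeq2 1.42.0, 1 fit for all libraries, blocks by letter or mouse, a choroid plexus covariate, a prior count of 0.5 and leaving out each mouse. Covariates for excitatory neuron level and for the percentage of antisense counts were chosen after seeing the data. Python 3.11.15 and matplotlib 3.10.9 drew the figures.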

Additional observations from a re-analysis of the deposited data

Results flagged for a closer look

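For 2 members, the sire treatment difference in the dorsal hippocampus differed between males and females by a test of the difference itself. *Junb* had a log2 fold change of 0.80 in males and -0.29 in females, a gap of 1.09 (edgeR adjusted p = 0.0188). *Egr4* had 0.77 in males and -0.27 in females, a gap of 1.03 (edgeR adjusted p = 0.0397). The corresponding ventral gaps were 1.05 and 1.09 and did not pass (edgeR adjusted p = 0.160 and 0.198). Both members were higher in every nicotine-sired than in every saline-sired male in the dorsal hippocampus. In dorsal females *Egr4* was lower in every nicotine-sired than in every saline-sired mouse. The *Junb* groups of dorsal females overlapped, at 49.9 to 59.4 CPM in nicotine-sired and 54.8 to 82.1 CPM in saline-sired mice. Of all 19849 genes, 12.3% were higher in this way in dorsal males and 9.76% lower in dorsal females. These are the values that entered the test, so they add no support to it. The part of litter or sire in these gaps cannot be told apart from the groups.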

How the results depend on the processing

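No value of a member changed from a call in one direction to a call in the other under any alternative. With DESeq2, 4 members were called in dorsal males (*Junb*, *Egr4*, *Egr2* and *Nr4a1*), 1 in dorsal hippocampus over both sexes (*Nr4a1*), 1 in ventral males (*Junb*) and 2 for the ventral gap between males and females (*Junb* and *Npas4*), where edgeR had 2, 0, 0 and 0. It also added *Npas4* to the dorsal gap (3 members against 2) and *Junb* between regions (6 against 5). The share of all genes that DESeq2 called is not given here, so its counts of members have no background to be read against. The dorsal male count and the dorsal gap between males and females, 2 each, were both 1 (*Junb*) without the low-count filter, in 1 fit of all 24 libraries and with the replicate letter as a block. Adding the level of choroid plexus markers also left the dorsal gap at 1. With the excitatory neuron level as a covariate both were 0, the dorsal gap being 1.15 for *Junb* and 0.91 for *Egr4* (log2), against 1.09 and 1.03 without it, and the ventral against dorsal count was 1 in place of 5. RLE size factors and the percentage of antisense counts as a covariate changed no call. That percentage was 0.424 to 0.506 in nicotine-sired and 0.235 to 0.281 in saline-sired ventral males, and 0.256 to 0.480 in nicotine-sired and 0.225 to 0.457 in saline-sired dorsal males. The cause of these changes was not tested. Leaving out each mouse in turn gave 0 to 3 members in dorsal males, 0 to 2 for the dorsal gap, 0 to 1 for dorsal hippocampus over both sexes and 5 to 7 between regions. In the paired fit with the mouse as a block, 7 members were called between regions, and for the treatment difference between regions it changed no call. For the fits without 1 mouse and the paired fit, the share of all genes called is likewise not given. Letters shared between groups give only a number: deviations of same-letter pairs correlated at -0.34 to 0.28, and 4 of 24 libraries correlated best with their own letter. The letter block took the number of all genes called in dorsal males to 164, against 341 without it. *Egr2* and *Npas4* rest on the fewest reads (from 40 and 88 counts in a library), which limits what their differences can show.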
